A study of Caenorhabditis elegans with 2 samples.

Results

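The nuclear genes for subunits of cytochrome c oxidase were examined in a chromatin immunoprecipitation sequencing (ChIP-seq) experiment on Caenorhabditis elegans. The 7 genes were cox-4, cox-5A, cox-5B, cox-6A, cox-6B, cox-6C and cox-7C, chosen by name from the WBcel235 annotation, out of 19985 annotated protein-coding genes. The series has a single group of 2 samples, labelled as biological replicates 1 and 2. Both are whole L4 larvae, pooled from males and females, of strain OP231, genotype unc-119(ed3) III; wgIs231. This line stably expresses the protein ZK546.5 with GFP-FLAG fused to its C terminus, and the labels name ZK546.5 as the target that was precipitated. Both replicates carry the transgene and the unc-119 mutation, and no other strain, stage or treatment was compared. Neither the promoter nor the copy number of the transgene is stated in the labels, and its expression in single tissues cannot be read from whole larvae.

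Cytochrome c oxidase, or complex IV, is the last enzyme of the mitochondrial respiratory chain. It takes electrons from cytochrome c, passes them to oxygen and pumps protons across the inner membrane, and ATP synthase uses the resulting gradient. Its catalytic core is encoded by mitochondrial DNA, and the subunits around the core are encoded in the nucleus and imported. In the mammalian enzyme COX5A and COX5B lie on the matrix side and COX6B on the intermembrane side, while COX4, COX6A, COX6C and COX7C each cross the inner membrane. In C. elegans, cox-5B, also called cco-1, is widely used in knockdown experiments that induce the mitochondrial unfolded protein response and lengthen life.

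Tagged ZK546.5 gave strong, reproducible summits next to cox-5A, cox-5B and cox-6B, a summit just short of the reproducible list upstream of cox-4, and weak summits at cox-7C, cox-6A and cox-6C. A summit is the base of highest signal in a peak, and it was counted for a gene when it lay within 1000 bp of an annotated 5′ end. Signal is the authors' value for each peak, and rank 1 is the strongest peak of a list. The reproducible list, thresholded by the authors on the irreproducible discovery rate (IDR), held exactly the strongest 1.01% of the 30000 peaks called on both replicates pooled. Each list was made with 1 control file, as the notes deposited beside the lists record. Since the authors label the longer lists as peaks and background, their weaker entries need not be binding sites.

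The sequences under 2 of the reproducible summits and under the weakest summit, that of cox-6C, are shown as examples. They do not stand for the windows of the other members. Each is the 200 bp on the pooled summit, read 5′ to 3′ on the strand of the gene from the RefSeq WBcel235 genome, at III:12905088-12905287 for cox-5A, III:2785962-2786161 for cox-6B and IV:126386-126585 for cox-6C. Capitals mark matches, on either strand, to 4 words that were searched, namely ACCGTA, then GCGCAC, then TGCGTCTC, and last TTTCAG.
cox-5A: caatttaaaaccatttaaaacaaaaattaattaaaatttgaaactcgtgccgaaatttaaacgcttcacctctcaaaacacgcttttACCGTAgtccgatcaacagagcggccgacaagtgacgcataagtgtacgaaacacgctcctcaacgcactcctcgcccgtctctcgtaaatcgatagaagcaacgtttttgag
cox-6B: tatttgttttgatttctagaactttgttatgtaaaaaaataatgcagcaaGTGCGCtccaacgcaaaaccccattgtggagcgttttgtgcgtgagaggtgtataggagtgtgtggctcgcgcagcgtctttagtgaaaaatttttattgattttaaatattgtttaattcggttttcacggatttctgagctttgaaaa
cox-6C: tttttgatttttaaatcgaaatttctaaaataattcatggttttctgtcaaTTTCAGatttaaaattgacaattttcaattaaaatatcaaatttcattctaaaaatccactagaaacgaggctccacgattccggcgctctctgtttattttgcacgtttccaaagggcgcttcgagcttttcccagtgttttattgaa

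In these windows ACCGTA stood on the strand of cox-5A, centred 10 bp upstream of the summit. The cox-6B window held the reverse complement of GCGCAC, 48 bp upstream of its summit. The cox-6C window held TTTCAG, the consensus at the 3′ end of C. elegans introns and trans-splice sites. Of the 7 members' windows, 2 held ACCGTA (cox-5A and cox-5B), 1 held GCGCAC, 1 held TTTCAG and 0 held TGCGTCTC. ACCGTA was in 21.4% of the windows on reproducible summits and in 5.44% of all 30000 pooled windows. For GCGCAC the shares were 22.7% and 3.33%, for TGCGTCTC 11.8% and 1.73%, and for TTTCAG 17.4% and 36.0%. Because the 4 words were chosen with earlier results of these data known, these differences are description only and were not tested. The windows of cox-4, cox-6A and cox-7C held none of the 4 words. In 400 bp windows ACCGTA was under 4 members, with cox-4 and cox-6C added, and TTTCAG under 5 (cox-5A, cox-6A, cox-6B, cox-6C and cox-7C). The shares above are for 200 bp windows and cannot be set beside these 400 bp counts. A match describes these letters in this window and does not mark a bound site.

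The windows also differed in base composition. The GC content was 52.0% at cox-5B, 41.5% at cox-5A, 36.5% at cox-6B and 40.5% at cox-4. It was 43.5% at cox-6A, 31.5% at cox-6C and 27.0% at cox-7C. Reproducible windows averaged 43.8% ± 7.73 (SD over reproducible windows) and all pooled windows 34.9% ± 7.48 (SD, n = 30000 windows). The weak summit of cox-6A therefore lay in sequence as rich in GC as the mean reproducible window, and the strong summit of cox-6B in sequence below that mean.

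Each member had exactly 1 pooled summit within 1000 bp, and all 7 summits were upstream of the member's own nearest 5′ end. For cox-4 and cox-6C a 5′ end of another gene was nearer, and the summit was downstream of it, by 167 bp for the pseudogene WBGene00012355 and by 223 bp for the non-coding RNA gene F29C4.9. Of all protein-coding genes 53.0% had a pooled summit in this window, 10590 genes in number. A reproducible summit lay there for 3 of the 7 members and for 3.32% of those 10590 genes (352 genes). The median signal over the 7 members was 32.0, and the median of the strongest summit over the 10590 genes was 11.5. No test was run on these counts: the series has no second group, and the members were listed with results of these data known. The median falls on cox-4, which separates 3 strong from 3 weak members.

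**Figure D1:**
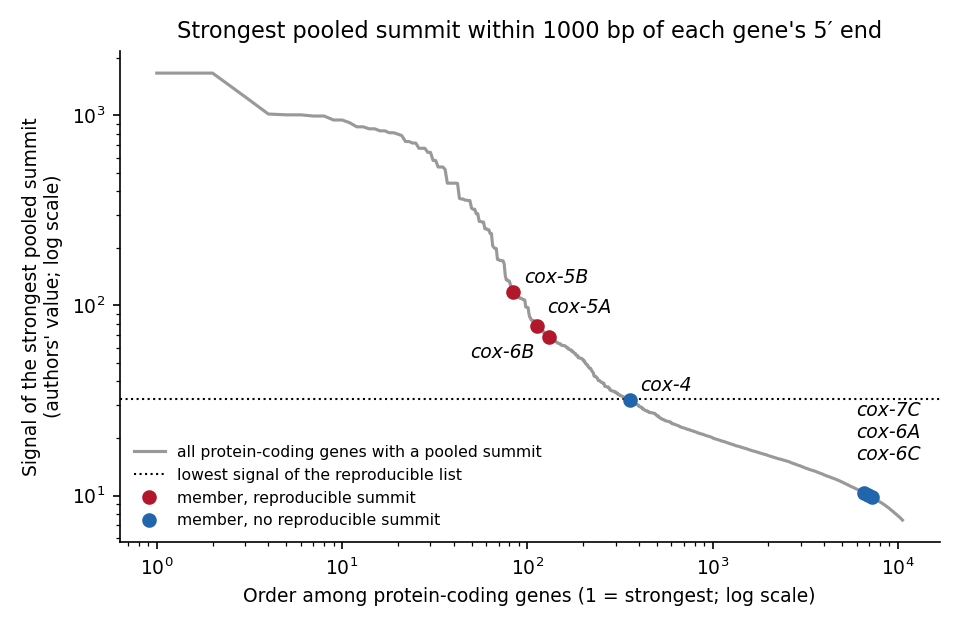
Signal of the strongest pooled summit within 1000 bp of a 5′ end (y axis, authors' value, log scale) against the order of the 10590 protein-coding genes that have one (x axis, log scale), with the 7 members as points. cox-5A, cox-5B and cox-6B sit on the steep part of the curve above the lowest reproducible signal of 32.2, cox-4 sits at the line, and the other 3 lie together near a signal of 10.

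The matrix-side subunit gene cox-5B (WBGene00000371) had the strongest summit of the family. The gene spans I:9788725-9790050 on the plus strand, and the peak I:9788656-9788815 covered its 5′ end. The pooled signal was 118 (rank 49), the signal in the list of replicate 1 was 53.1 (rank 77) and in that of replicate 2 it was 63.3 (rank 45). The pooled summit was 17 bp upstream of the 5′ end of the longer of 2 annotated transcripts and 301 bp upstream of that of the shorter one. The summits of the replicates lay 0 and 20 bp from the pooled summit. Replicate 2 had 2 further weak summits inside the gene, with signals of 6.54 and 5.35, both below the median of that list, 6.95.

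The cox-5B peak was 160 bp wide, whereas 344 bp is the usual width in the pooled list. Only 63 pooled peaks had another width; all of these were in the reproducible list, and 43 were narrower. No other protein-coding gene had a 5′ end within 1000 bp of the summit. The nearest one was that of tba-1, an alpha-tubulin gene on the opposite strand, at 1084 bp. The non-coding RNA genes F26E4.16 and F26E4.14, which lie within cox-5B, began 513 and 538 bp downstream of the summit.

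The second matrix-side subunit gene, cox-5A (WBGene00012553, III:12905491-12906619, plus strand), had its summit in intergenic sequence 303 bp upstream of its only annotated 5′ end. The peak III:12905016-12905359 had a pooled signal of 78.4 (rank 77). Replicate 1 gave a signal of 46.3 (rank 86) and replicate 2 gave 26.5 (rank 130), with summits 5 and 8 bp from the pooled one. It was the only reproducible summit of the family with no other annotated 5′ end within 2000 bp. The next pooled summit, 1275 bp from the 5′ end, had a signal of 19.6 (rank 1417) and was not reproducible.

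The gene of the intermembrane-side subunit, cox-6B (WBGene00022170), shared its reproducible summit with other genes. The peak III:2785890-2786233 had a pooled signal of 68.4 (rank 93), a signal of 39.0 in replicate 1 (rank 105) and of 27.0 in replicate 2 (rank 121). The summit lay 140 bp upstream of the 5′ end of cox-6B and 114 bp upstream of that of Y71H2AM.20, which RefSeq names a serine/threonine-protein phosphatase 2A activator and which runs in the opposite direction. The 2 starts were 254 bp apart, so the summit sat between divergent genes, slightly nearer to Y71H2AM.20. Another gene, nduc-2, listed here with complex I, followed cox-6B on the same strand with a gap of 97 bp after the shorter cox-6B transcript, and its 5′ end was 790 bp from the summit.

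The 2 annotated transcripts of cox-6B start far apart. The 5′ end near the summit belongs to transcript Y71H2AM.5.1, which is 553 bp long. A second transcript, Y71H2AM.5.2, starts at III:2699663 and spans 87197 bp, so the gene as annotated runs over III:2699663-2786859 and the summit falls in an intron of that transcript. Within 1000 bp of this distant 5′ end the pooled list had no summit, replicate 2 had none, and replicate 1 had a single one with a signal of 6.20 (rank 10738). The assignment of the strong summit to cox-6B thus rests on the shorter transcript.

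The gene of a subunit that crosses the membrane, cox-4 (WBGene00012354, I:13658171-13659128, minus strand), lay just outside the reproducible list. Its peak I:13659426-13659769 had a pooled signal of 32.0 (rank 312), and 7 pooled peaks separated it from the weakest reproducible peak, with a signal of 32.2. Replicate 1 gave a signal of 15.2 (rank 513) and replicate 2 gave 14.0 (rank 1180). The pooled summit was 470 bp upstream of the 5′ end, with the replicate 1 summit 17 bp away and the replicate 2 summit 103 bp away, nearer to the gene. The summit fell in an intron of WBGene00012355, a pseudogene that starts 167 bp from it and runs away from cox-4. The nearest reproducible summit was 4273 bp from the 5′ end of cox-4, with a signal of 74.5 (rank 83), and was 49 bp from a 5′ end of ints-4.

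The other genes of membrane-crossing subunits had summits no stronger than the median pooled peak, 10.3. At cox-7C (WBGene00009161, I:9773172-9774012, plus strand) the pooled signal was 10.3 (rank 15026), 210 bp upstream. Neither replicate had a summit within 100 bp of it: replicate 1 had a summit inside the gene with a signal of 3.65 (rank 28939), and replicate 2 had none within 1000 bp of the 5′ end. At cox-6A (WBGene00006519, III:5081724-5082995, plus strand) the pooled signal was 10.1 (rank 15943), 775 bp upstream and only 51 bp from the start of F54D8.7, an snRNA gene on the other strand. Replicate 1 matched it within 16 bp (signal 9.11, rank 3279), and the strongest summit of replicate 2 was 712 bp downstream of a 5′ end, in an intron (8.89, rank 7725). At cox-6C (WBGene00017926, IV:126731-127640, plus strand) the pooled signal was 9.84 (rank 16978), 245 bp upstream. Replicate 2 matched this within 4 bp (9.65, rank 5880), and the nearest summit of replicate 1 was 193 bp away (5.52, rank 14169). The pooled summit was also 555 bp from the 5′ end of grld-1, a divergent protein-coding gene on the opposite strand.

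**Figure D2:**
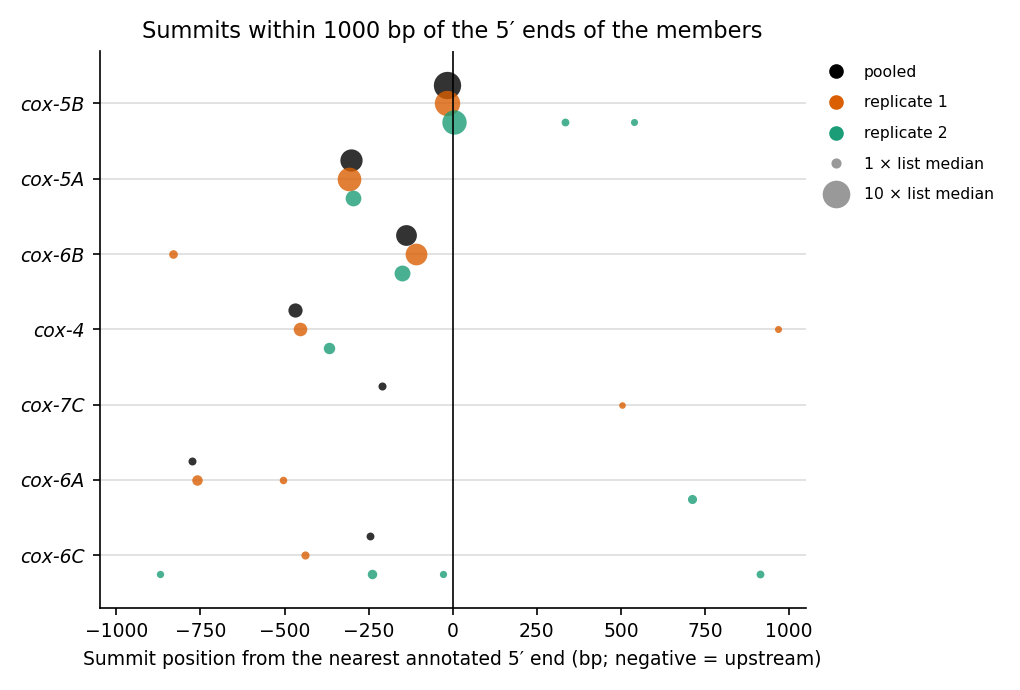
Every summit within 1000 bp of a 5′ end of the 7 members (rows), by distance from the nearest 5′ end in bp (x axis, negative is upstream), in the pooled list and in each replicate; the area of a point is the signal divided by the median of its list. At cox-5A, cox-5B and cox-6B the 3 lists place a large point at nearly the same position, and at cox-7C, cox-6A and cox-6C the points are small and scattered. Points in a row can be measured from different 5′ ends. The cox-6B replicate 1 point at -832 bp is measured from the distant 5′ end of the longer transcript. The cox-5B replicate 2 points at 334 and 538 bp are measured from the 5′ end of the shorter transcript.

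By the signal of the strongest pooled summit the order was cox-5B (118), then cox-5A (78.4), then cox-6B (68.4), cox-4 (32.0), cox-7C (10.3), cox-6A (10.1) and cox-6C (9.84). No spread can be given to a pooled value, so neighbours were compared by rank within each replicate. cox-5B was first in both replicates, with ranks of 77 and 45. cox-5A and cox-6B changed places: cox-5A ranked 86 and 130, and cox-6B ranked 105 and 121. cox-4 came after these 3 and before cox-6A, cox-6C and cox-7C in both lists. cox-6A and cox-6C also changed places, with ranks of 3279 and 7725 for cox-6A and of 14169 and 5880 for cox-6C. cox-7C, the first of these 3 in the pooled order, was the last in each replicate, with rank 28939 in replicate 1 and no summit in replicate 2. These ranks are of the strongest summit within 1000 bp, which for the weak members need not be the pooled site. It lay 1489 bp from the pooled summit at cox-6A in replicate 2. In replicate 1 it lay 714 bp away at cox-7C and 193 bp away at cox-6C. By this measure the steps from the strong members to cox-4 and from cox-4 to the weak ones appeared in both replicates. The pooled and reproducible lists were made from these same replicates, so this recurrence is not independent of the pooled order.

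The same 3 members had a summit among the strongest peaks of replicate 1 and among those of replicate 2, taking as many from each as the reproducible list holds. Of the 10590 protein-coding genes, 1.94% (205 genes) met this rule. Since the reproducible list was made from these replicates, the rule is not independent of that list. The pooled summits of the same 3 members were also the only ones of the family with a summit within 100 bp in both replicate lists. For cox-4 the replicate 2 summit was just past this limit, at 103 bp. The share of all pooled summits matched in this way is not given, so the match cannot be read as particular to these members. Signal divided by the median of its own list was 9.86 in replicate 1 and 9.10 in replicate 2 at cox-5B, 8.60 and 3.81 at cox-5A, and 7.25 and 3.88 at cox-6B. cox-5A and cox-6B therefore stood higher above the list median in replicate 1. How signal was scaled in each list is not stated in the files, and this difference was not tested.

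**Figure D3:**
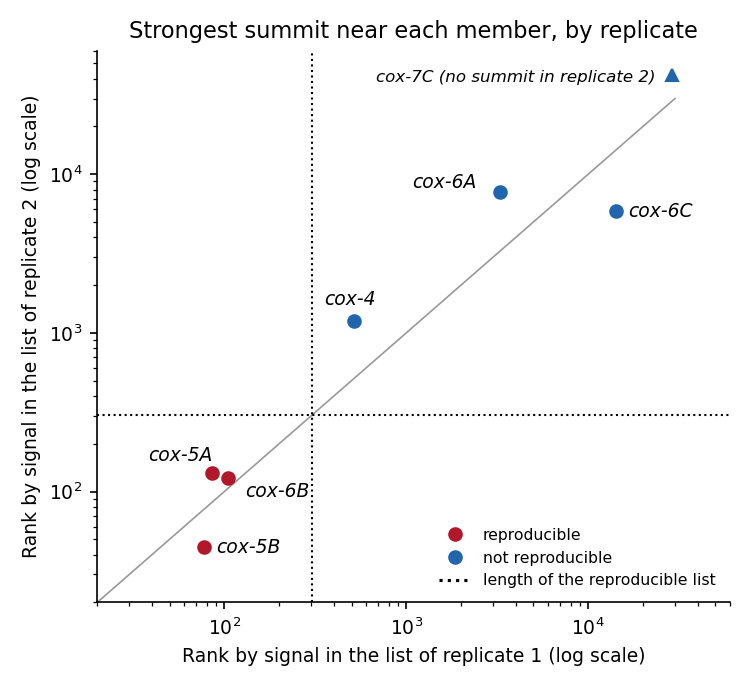
Rank by signal of the strongest summit within 1000 bp of each member in the list of replicate 1 (x axis) and of replicate 2 (y axis), both on log scales, with dotted lines at the length of the reproducible list and a grey line of equal rank. cox-5A, cox-5B and cox-6B fall inside these lines on both axes, and cox-7C, which had no summit in replicate 2, is drawn as a triangle at the top.

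The genes of most like signal were the next ones in the order of the 10590 genes, leaving out those that share a member's summit; likeness is this order alone, in the 1 pooled list. cox-5B stood in place 84, between set-16 (signal 119), whose summit is shared with drr-2, and klp-13 (117), a kinesin-like protein gene. cox-5A stood in place 113, between wdr-46 (81.0), a WD repeat protein gene, and F36A2.9 (76.1), whose summit is shared with the ribosomal protein gene rps-15. cox-6B stood in place 131, between F32D8.5 (68.7) and R06C1.4 (66.8), a gene for a protein with an RNA recognition motif. RefSeq names F32D8.5 a homolog of the mitochondrial transmembrane protein TMEM70, and the F32D8.5 summit is shared with F32D8.14. The weak members stood in places 6603 to 7240, in the lower part of the order.

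The rest of the respiratory chain was counted in the same way from lists of 84 other nuclear genes, of which 61 had a pooled summit within 1000 bp. A reproducible summit was near 8 of these 61 (13.1%), against 3 of 7 members and the 3.32% of the 10590 protein-coding genes given above. The count of 8 was 5 within 500 bp, 3 within 200 bp and 4 with only the nearest protein-coding gene per peak. That of the members was 3, 2 and 2. The 3.32% belongs to the 1000 bp rule, and no share of all genes is given for these narrower rules. The median strongest signal of the 61 was 14.0. In complex I, which takes electrons from NADH, 4 of 20 genes had a reproducible summit: ndab-2 (111), nduc-2 (68.4, the cox-6B summit), ndua-8 (61.4) and nuo-1 (33.0). The summit of ndab-2 was 888 bp from its 5′ end and also within 1000 bp of the ribosomal protein genes rps-14 and rpl-36. That of nuo-1 was also within 1000 bp of the ribosomal protein gene rpl-36.A, and ranked 1744 in replicate 1 and 185 in replicate 2, so nuo-1 was not among the genes counted without replicate 2. That of ndua-8 was also near rbc-2 and Y54F10AM.15. In complex III, which passes electrons to cytochrome c, it was 1 of 7, T27E9.2 (535), a cytochrome b-c1 subunit gene per RefSeq, whose summit was shared with abcf-2 and the adenine nucleotide translocase gene ant-1.1. Among ATP synthase genes it was 3 of 16, namely atp-1 (870, also near mcrs-1), Y82E9BR.3 (366) and atp-3 (52.9, also near F27C1.2).

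Genes that act just before complex IV or help build it, and those of complex II, were counted by the same rule. Counts of 0 in lists this short lie near the 3.32% of the 10590 protein-coding genes and are no result about the listed genes. Cytochrome c is encoded by cyc-2.1 and cyc-2.2, and 0 of these 2 genes had one. Their strongest pooled signals were 11.8 and 7.52. Of 13 genes on the complex IV assembly list with a pooled summit, 0 had a reproducible one, and the strongest were cox-14 (30.8, rank 340), cox-10, needed for the heme of the enzyme (26.3, rank 486), and sco-1, a copper chaperone gene (21.8, rank 909). In replicate 1 alone, cox-14 (rank 248) and cox-10 (rank 241) were among as many of the strongest peaks as the reproducible list holds, and in replicate 2 they ranked 1563 and 9101. Of 3 complex II genes with a pooled summit, 0 had a reproducible one. The core subunits encoded by mitochondrial DNA were not compared, since their names did not match the annotation. The pooled list and the list of replicate 2 held 0 mitochondrial peaks and that of replicate 1 held 25.

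**Figure D4:**
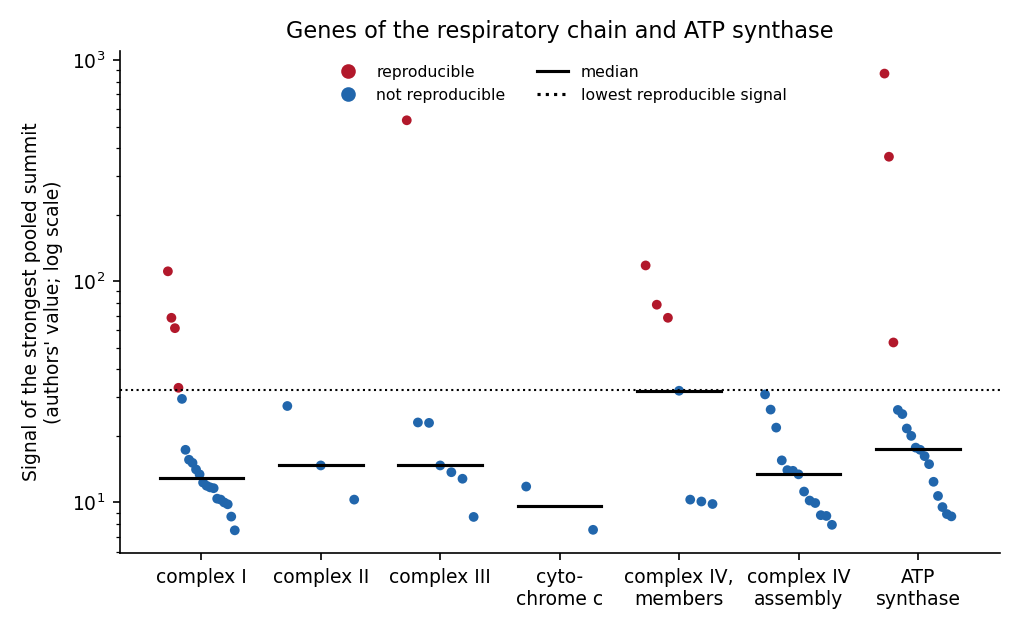
Signal of the strongest pooled summit within 1000 bp (y axis, authors' value, log scale) for each gene of the respiratory chain and ATP synthase lists that has one, grouped by complex, with the median of each group as a bar. The complex IV members have the highest group median, 32.0, and the strongest single genes are in ATP synthase and complex III.

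ACCGTA, the word under cox-5A and cox-5B, was also under the summits of atp-1, Y82E9BR.3 and T27E9.2, 3 of the 8 other respiratory genes with a reproducible summit. GCGCAC was under nduc-2 (the summit it shares with cox-6B), nuo-1 and T27E9.2. TGCGTCTC and TTTCAG were under 0 of the 8. Over all reproducible windows of 200 bp the shares were 21.4% for ACCGTA, 22.7% for GCGCAC, 11.8% for TGCGTCTC and 17.4% for TTTCAG. Among only 8 genes, counts of 0 lie near such shares, and none of the 4 counts was tested. Of the 232 reproducible summits with a protein-coding 5′ end within 1000 bp, 87.9% were upstream of the nearest such 5′ end, at a median distance of 218 bp in either direction. The members' reproducible summits, 17, 303 and 140 bp upstream, lay on both sides of that distance.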

How the data were processed

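ChIP-seq peak lists of 2 biological replicates were used, as deposited by the authors in the ce11 build. As recorded in the deposited notes, each replicate list came from 1 alignment file and 1 control file, the pooled list from both replicates, and the reproducible list from these by IDR thresholding. The deposited signal per peak was used as given by the authors, for ranking within a list. The labels and notes used here name no aligner, peak caller, depth or scaling between lists. Summit positions come from the offset in bp that the authors deposited for each peak. The ce10 lists were not used, as gene starts could not be placed on them.

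Summits were compared with 5′ ends of all transcripts in Ensembl release 115 (WBcel235, the same build as ce11; 0 peaks ran past a chromosome end) using Python 3.11.15, numpy 2.4.6 and pandas 2.3.3. A summit within 1000 bp was counted for a gene, and summits within 100 bp matched between lists. Words were searched on both strands in 200 bp windows. The functions were tested on simulated data. Trans-splicing is common in C. elegans, and a true start may lie upstream of the annotated 5′ end. No test was run, as there is 1 group. The count background was the 10590 protein-coding genes with any pooled summit in the window. Of 7 gene lists, names absent from the annotation (14) were left out.

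The members, lists and words were chosen with earlier results of these data known. Genes were named by rule: all members, genes near their strongest summits, the next genes in the order of signal and at most 4 genes per list with a reproducible summit. cox-14, cox-10 and sco-1 were named after their values were seen. Alternatives were other windows, thresholds, 5′ ends, match distances and single replicates.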

Additional observations from a re-analysis of the deposited data

How the results depend on the processing

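cox-5A, cox-5B and cox-6B were the 3 members near a reproducible peak also with a 500 bp window, with the stronger 152 reproducible peaks, and with the strongest peaks of either replicate alone, as many as in the reproducible list (3 members without replicate 1 and 3 without replicate 2). The count was 2 within 200 bp (cox-5A lost), 2 with the outermost 5′ end of each gene or the nearest protein-coding gene per peak (cox-6B lost), and 4 among the 608 strongest pooled peaks (cox-4 gained). Of the other respiratory genes, 8 were near a reproducible peak within 1000 bp, 5 within 500 bp, 3 within 200 bp and 4 with the nearest protein-coding gene per peak, since narrower rules drop shared or distant summits. That count was 8 without replicate 1 and 10 without replicate 2. The share of 3.32%, over the 10590 protein-coding genes with a pooled summit, belongs to reproducible peaks within 1000 bp of any 5′ end. No such share is given for the alternative rules, so their counts cannot be set beside it. Summits matched in both replicates for 3 members within 100 bp and for 5 within 200 bp, where cox-4 and cox-6C were added. The share of all pooled summits that match by either rule is not given. In 400 bp windows ACCGTA was under 4 members (cox-4 and cox-6C added) and TTTCAG under 5, as wider windows hold more words. Shares over all windows were taken at 200 bp only. Of 34 values recomputed under an alternative, 6 were counts that moved by over 1.5 times, each given here. cox-6A had no pooled summit within 500 bp, and within 200 bp only cox-5B and cox-6B had one. No paired analysis was possible because the series has 1 group. The depth of the libraries is unknown, so a weak or missing summit does not show that the protein is absent.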

Other observations

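The 3 genes with a reproducible summit, cox-5A, cox-5B and cox-6B, encode the subunits that in the mammalian enzyme lie outside the membrane. The 4 without one, cox-4, cox-6A, cox-6C and cox-7C, encode subunits that cross it. This sorting was noticed after the values were seen and was not tested, and cox-4 missed the reproducible list by a few ranks. It also depends on the counting rule. With the outermost 5′ end of each gene, or the nearest protein-coding gene per peak, cox-6B was lost. Within 200 bp cox-5A was lost.

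cox-5B and cox-7C lie near each other on the same strand, starting at I:9788725 and I:9773172, yet their strongest pooled signals were 118 and 10.3. cox-7C also starts 607 bp from a divergent protein-coding gene, F26E4.4, which RefSeq names a subunit of RNA polymerase III, and this gene had no reproducible summit within 1000 bp either. The divergent arrangement at cox-6B held a signal of 68.4. That of cox-6C and grld-1, with starts 800 bp apart, held a signal of 9.84.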
